A study of Homo sapiens with 2 samples.

Results

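H3K9me3, trimethylation of lysine 9 of histone H3, was mapped by ChIP-seq (sequencing of DNA pulled down with an antibody) in KBM7 cells, an established leukemia line in which most chromosomes are present once. The peaks described here are those of chromosome 15 whose midpoint lies from 60 to 90 Mb (hg19). They number 1000 of the 126965 peaks of the library, and 27.2% of the 3671 peaks on chromosome 15. The other 2671 peaks of the chromosome, 1887 below 60 Mb and 784 beyond 90 Mb, serve as the comparison. The study used 1 library from an Abcam antibody to H3K9me3 and 1 from control IgG, both after formaldehyde crosslinking and sonication of the chromatin. Values here come from the antibody to H3K9me3; the control was not analysed here. No RNA level was analysed here, so the line could not be checked by marker genes. There was thus no replicate and no control beside any value, no p-value was computed, and intervals cover counting error only. Deposited reads over all 40237 gene intervals of the genome sum to 78512210, a sum that counts reads in overlapping intervals more than once.

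H3K9me3 is the mark of constitutive heterochromatin. It is written by methyltransferases such as SETDB1 and the SUV39H enzymes and bound by HP1 proteins, which help it spread to neighbouring nucleosomes, so that marked regions can be broad. In differentiated cells it is found over satellite repeats, retrotransposons, zinc finger gene clusters and genes of other lineages. KBM7 cells are known to keep a piece of the long arm of chromosome 15 in an extra copy. Peak calling is sensitive to read depth, and in these data the extra copy and the position on chromosome 15 cannot be told apart. The bounds of 60 and 90 Mb were set with values of this library known, so the width of peaks inside them is a description.

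Promoters matched by symbol to genes that start in wide peaks are shown first by sequence. ACAN (aggrecan, the large proteoglycan of cartilage), C2CD4B (a C2 domain protein) and TPM1 (tropomyosin 1, an actin-binding protein of muscle and other cells) are the protein-coding genes whose start lay inside one of the 10 widest peaks. CYP11A1, the side-chain cleavage enzyme that starts steroid synthesis, had its start inside a peak of 15150 bp and was added after its values were seen, because its promoter is poor in CpG. The lines give the 250 bases before the start in RefSeq on GRCh38.p14, 5′ to 3′ on the strand of the gene, with every CG dinucleotide in capitals. They lie on the plus strand at chr15:88803186-88803435 for ACAN and chr15:63048239-63048488 for TPM1, and on the minus strand at chr15:62165286-62165535 for C2CD4B and chr15:74367647-74367896 for CYP11A1. All other coordinates here are hg19, and positions were not converted between the 2 builds. TPM1 lies between C2CD4B and CYP11A1, whose starts shift by a like distance from hg19 to GRCh38, but the TPM1 start shifts less. The TPM1 promoter shown may thus belong to another start site, outside the peak.
ACAN: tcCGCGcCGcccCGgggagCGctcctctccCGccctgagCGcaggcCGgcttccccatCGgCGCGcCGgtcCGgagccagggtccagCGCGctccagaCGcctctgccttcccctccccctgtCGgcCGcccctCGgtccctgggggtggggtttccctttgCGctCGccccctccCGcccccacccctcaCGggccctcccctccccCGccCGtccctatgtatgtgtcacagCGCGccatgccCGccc
C2CD4B: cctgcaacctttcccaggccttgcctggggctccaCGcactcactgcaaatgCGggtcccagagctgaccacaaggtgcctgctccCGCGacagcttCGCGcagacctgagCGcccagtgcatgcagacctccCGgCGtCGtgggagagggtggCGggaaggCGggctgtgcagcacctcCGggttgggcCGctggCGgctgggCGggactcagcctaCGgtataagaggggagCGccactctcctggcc
TPM1: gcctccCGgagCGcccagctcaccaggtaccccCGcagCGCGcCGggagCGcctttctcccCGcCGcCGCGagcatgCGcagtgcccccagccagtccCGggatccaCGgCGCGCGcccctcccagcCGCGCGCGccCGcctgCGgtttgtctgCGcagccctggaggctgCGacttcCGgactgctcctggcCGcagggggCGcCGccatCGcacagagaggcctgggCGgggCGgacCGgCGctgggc
CYP11A1: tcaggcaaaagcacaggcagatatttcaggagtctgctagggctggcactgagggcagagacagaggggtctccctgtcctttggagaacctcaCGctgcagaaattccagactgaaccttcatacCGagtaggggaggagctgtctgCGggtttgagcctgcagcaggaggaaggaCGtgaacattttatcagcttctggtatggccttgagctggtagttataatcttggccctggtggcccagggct

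These promoters held 28 CG dinucleotides in ACAN, 18 in C2CD4B, 34 in TPM1 and 4 in CYP11A1. The letters searched were CG, which reads the same on both strands. At least 1 was present in 93.6% of the 27305 RefSeq promoters of this length, with a median of 11.0. The 8 protein-coding genes of the segment with a start in a peak of 10 kb or more were these 4, STRA6, CCDC33, FAM108C1 and BNC1. Their median was 23 CG per promoter (25th to 75th percentile 4.0 to 35.2). The 194 matched genes of the segment with a start in no peak had a median of 20.5 (11.0 to 27.0). Promoters matched to these 8 genes thus included both CpG-rich and CpG-poor ones, and STRA6, CCDC33 and CYP11A1 had 2, 4 and 4. Like TPM1, the starts of STRA6, CCDC33 and FAM108C1 shift less between the builds than those of C2CD4B and CYP11A1. Counts for these genes may therefore describe start sites other than those inside the peaks.

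Of 13 microRNA symbols in the segment 4 had a peak, beside 14.9% of the 725 microRNA symbols of the library, and 1, MIR184, lay under a wide one, beside 3.31%. Mature sequences of 11 of the 13 were found in RefSeq (GRCh38.p14) by symbol. The 4 in peaks are shown by 1 mature form each, 5′ to 3′, with the seed, bases 2 to 8, in capitals. Their seeds differ from each other.
hsa-miR-184: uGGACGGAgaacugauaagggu
hsa-miR-190a-5p: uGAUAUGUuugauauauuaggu
hsa-miR-631: aGACCUGGcccagaccucagc
hsa-miR-9-5p: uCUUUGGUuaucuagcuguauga

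MIR184, at 79502130 to 79502213 on the plus strand, had 145 reads over its 84 bp, or 1726 reads per kb of interval (exact Poisson interval at 95%, 1457 to 2031). MIR631, at 75645952 to 75646026 within the interval of NEIL1, a DNA repair gene, had 102 reads or 1360 (1109 to 1651), and its peak of 9450 bp is the one over NEIL1. MIR9-3, a microRNA of neural progenitors at 89911248 to 89911337, had 53 reads or 589 (441 to 770.3) in a peak of 4500 bp close to the upper edge. MIR190, within the TLN2 interval, had 44 reads or 518 (376 to 695) in a peak of 9600 bp. MicroRNAs outside peaks overlapped these values: MIR1179 and MIR1276 had 857 (678 to 1070) and 843 (657 to 1066), and MIR7-2 was lowest at 72.7 (31.4 to 143). Intervals this short hold few reads, and their scores are set here only beside each other, not beside those of longer genes.

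Peaks in the segment were wider than elsewhere on the chromosome and fewer per Mb, with a larger median gap. Their median width was 3600 bp (exact binomial order-statistic interval at 95%, 3300 to 3750), against 900 bp on the rest of chromosome 15, a ratio of 4.0. The middle of the distribution, from the 25th to the 75th percentile, ran from 1800 to 6900 bp in the segment and from 600 to 1500 bp outside it. The interval for the segment lay above the 75th percentile of the peaks outside. Narrow peaks of at most 900 bp made up 12.6% of the segment and 55.3% of the rest. The narrowest peak was 300 bp in both parts. Peaks per Mb were 33.3 in the segment and 50.9 outside, a ratio of 0.655. The sequence in peaks was 5.41 Mb, or 18.0% of the segment, against 6.57% of the rest, a ratio of 2.74.

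**Figure D1:**
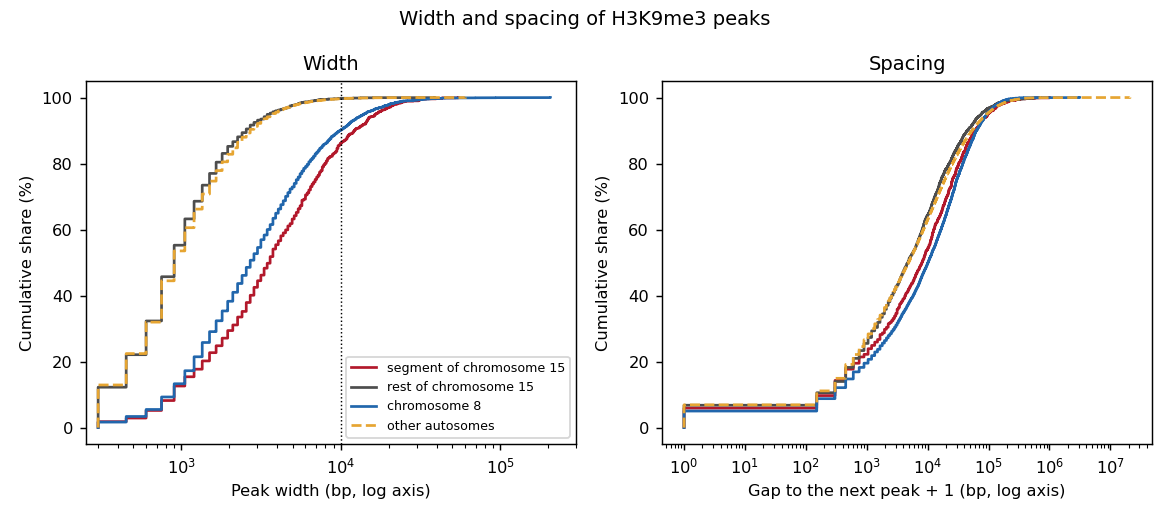
Cumulative share of peaks by width (left, bp, log axis, dotted line at 10 kb) and by gap to the next peak (right, bp plus 1, log axis) for the segment of chromosome 15, the rest of the chromosome, chromosome 8 and the other autosomes. The segment, with a median width of 3600 bp, lies far to the right of the rest at 900 bp and near chromosome 8 at 2700 bp, while the curves of gaps lie closer together than those of width.

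Width classes show where the shift lay. Peaks of 300 to 600 bp were 52 of the segment (5.20%) and 863 of the rest (32.3%). Those of 3150 to 6000 bp were 260 (26%) and 148 (5.54%), and those of 6150 to 9900 bp were 156 (15.6%) and 27 (1.01%). Peaks of 10 kb or more were 139 of 1000, or 13.9% (exact binomial interval 11.8 to 16.2%), and 8 of 2671, or 0.30% (0.129 to 0.589%). Over the whole library 0.837% of peaks were that wide, and over autosomes other than 8 and 15 it was 0.365%. These 139 peaks held 43.1% of all sequence in peaks of the segment, whereas the 8 outside held 3.65% of theirs. The ratio of the shares was 46.4. It was 15.6 with 5 kb and 80.1 with 20 kb as the width, and 13.0 with gaps of 1500 bp or less joined.

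Of the 8 wide peaks outside the segment, 5 lay below 26 Mb. The widest of them, 38850 bp at 25295101 to 25333950, and 2 more at 25451851 to 25465200 and 25465501 to 25477500 overlapped the small nucleolar RNA arrays of the Prader-Willi locus. The next toward the segment, 11850 bp at 51548251 to 51560100, lay over CYP19A1, which encodes aromatase. Beyond the segment the first was at 93125401 to 93135450. Without the first 35 Mb of the chromosome the share of wide peaks outside fell to 0.163%.

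Gaps between neighbouring peaks had a median of 8100 bp in the segment (6600 to 9300) and 4800 bp outside (4200 to 5250), a ratio of 1.69 (interval 1.26 to 2.21). Without peaks under 600 bp the ratio was 1.26, with an interval of 0.961 to 1.64 that includes no difference. Both intervals divide opposite ends of the intervals of the medians, so they are wider than a 95% interval of the ratio. Part of this spacing was in short gaps: 26.7% of gaps in the segment were 1500 bp or less, against 31.9% outside. Peaks that touched the next one, with a gap of 0, were 5.90% and 6.78%. Touching peaks are therefore a feature of the peak list as a whole. With gaps of 1500 bp or less joined, the segment held 733 stretches with a median of 4650 bp and the rest 1820 stretches with a median of 1200 bp, and 157 and 30 stretches reached 10 kb. The largest joined stretch, 69600 bp at 89329501 to 89399100, ran over ACAN and consisted of 2 peaks. The next, 60750 bp at 70131001 to 70191750, was made of 3 peaks and reached C15orf50. Of the next 3, of 58800, 58650 and 53850 bp, the 2 shorter ones overlapped no gene interval.

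Chromosome 8, which KBM7 cells are also known to keep in an extra copy, had values near those of the segment. Its 5042 peaks had a median width of 2700 bp (2700 to 2850) and 34.5 peaks per Mb, and 9.88% of them reached 10 kb. The segment lay above it by 1.33 times in median width and 1.41 times in the share of wide peaks. In peaks per Mb the ratio was 0.967. Median gaps were 8100 bp in the segment and 10200 bp on chromosome 8.

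In 1 Mb steps the change in width was abrupt at both ends. From 55 to 60 Mb the medians had been at or below 1200 bp. The step from 60 to 61 Mb, inside the stated bounds, held 85 peaks with a median of 900 bp and covered 9.13% of its sequence. From 61 to 62 Mb there were 83 peaks, with a median of 3300 bp, a widest peak of 17700 bp and 36.0% of sequence in peaks. The number of peaks hardly differed between these 2 steps. From 62 to 63 Mb the median was 5700 bp, with 10 peaks of 10 kb or more. The first Mb of the stated range thus had peaks of the width found on the rest of the chromosome.

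At the upper end the step from 88 to 89 Mb had a median of 2550 bp and the step from 89 to 90 Mb 33 peaks with a median of 5250 bp, 9 of them of 10 kb or more, and 27.2% of sequence in peaks. From 90 to 91 Mb 35 peaks had a median of 1500 bp, none reached 10 kb and 5.89% of sequence lay in peaks. From 91 to 92 Mb the median was 1050 bp and from 92 to 93 Mb 900 bp. The number of peaks in these 2 steps from 89 to 91 Mb was 33 and 35.

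**Figure D2:**
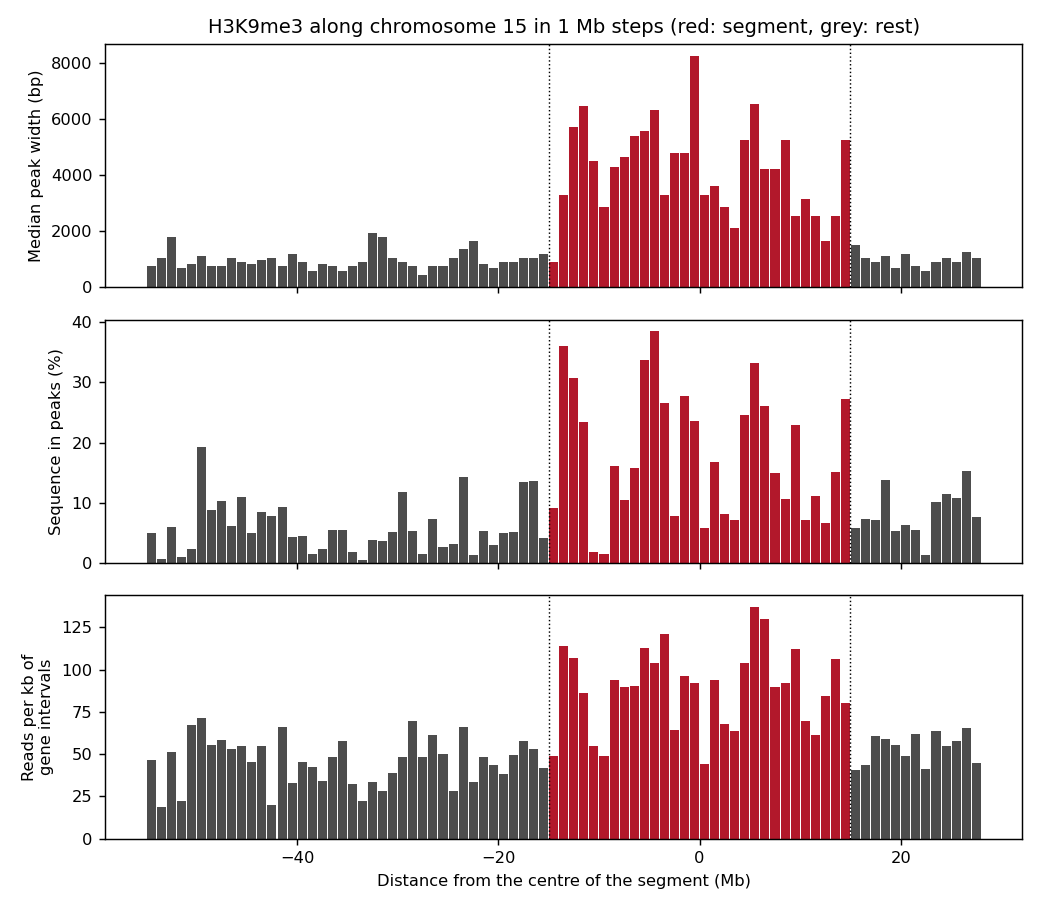
Median peak width (bp), share of sequence in peaks (%) and reads per kb over gene intervals in 1 Mb steps of chromosome 15, by distance from the centre of the segment in Mb, with dotted lines at the stated bounds. Widths step up 1 Mb inside the lower bound, from 900 to 3300 bp, and down at the upper bound, from 5250 to 1500 bp, while sequence in peaks varies widely between steps of the segment.

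A step was called when its median width was at least 1800 bp, which is 2 times the median of the rest of the chromosome. In the segment 28 of 30 steps were called and outside it 3 of 53, and over autosomes other than 8 and 15 the share was 2.13% of 2493 steps. The 2 steps not called were 60 to 61 Mb and 87 to 88 Mb, where the median was 1650 bp. The longest unbroken run of called steps therefore went from 61 to 87 Mb, and the steps from 88 to 90 Mb formed a further run behind it. By the share of sequence in peaks in place of the width, the longest run went only from 68 to 72 Mb. Medians of the 30 steps ran from 900 to 8250 bp, and those of the 53 outside from 450 to 1950 bp. The highest, 8250 bp, was in the step from 74 to 75 Mb, which holds STRA6, CCDC33 and CYP11A1.

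The change of width could be placed more closely from the peaks themselves. Among the peaks within 2 Mb of each edge the split that best separated log2 widths fell between 61096050 and 61109551 at the lower end. At the upper end it fell between 89954250 and 89999701. With windows of 1, 3 and 5 Mb the split lay between 61.05 and 61.11 Mb and between 89.95 and 90.01 Mb. In the 500 kb below the lower split 32 peaks had a median of 1050 bp and 5 of them reached 3000 bp. In the 500 kb above it 40 peaks had a median of 5025 bp and 30 reached 3000 bp. At the upper split the medians were 3750 bp over 15 peaks below and 1425 bp over 30 peaks above. These splits were chosen from the widths, so the medians beside them are descriptions.

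Single peaks at the edges show the same step. Peaks at 61080151 to 61081950, 61085401 to 61088700 and 61095451 to 61096050 were 1800, 3300 and 600 bp wide. The next 3 were 5700, 5550 and 5400 bp, and the fourth, at 61131451 to 61146150, was the first of 10 kb or more in the segment at 14700 bp. At the other end the last 4 peaks below the split were 4500, 3750, 3750 and 6750 bp. The next 3, from 89999701 on, were 1800, 1500 and 600 bp. The last peak of 10 kb or more lay at 89774701 to 89786850, and the one before it at 89470951 to 89481900.

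At the bounds of 60 and 90 Mb themselves only the upper end had the wider peaks inside. The last 3 peaks below 60 Mb were 3450, 1650 and 1950 bp and the first 3 above it 450, 300 and 1950 bp. At 90 Mb the last 3 inside were the peaks of 3750, 3750 and 6750 bp named above and the first 3 outside those of 1800, 1500 and 600 bp.

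**Figure D3:**
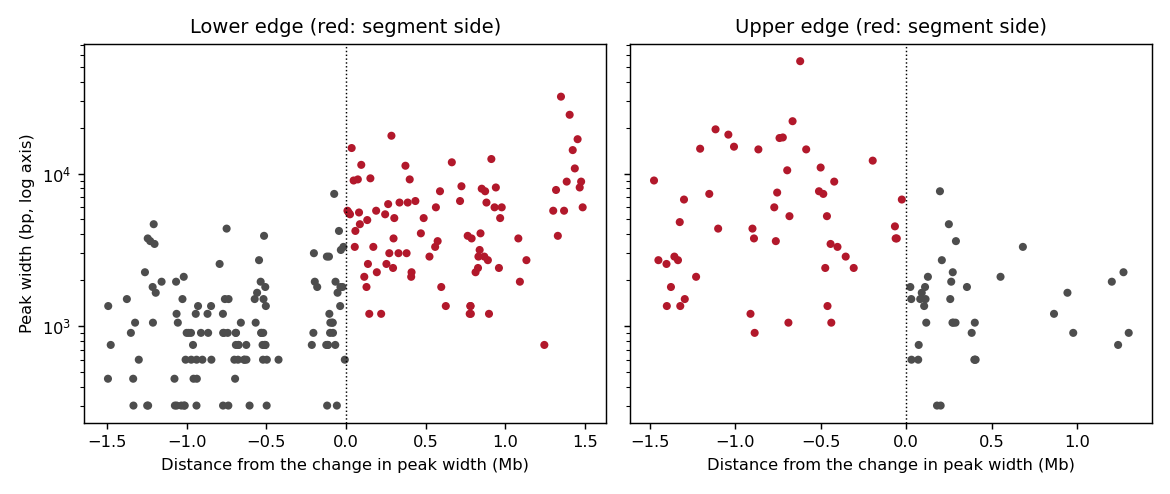
Width of each peak (bp, log axis) by distance in Mb from the split that best separates widths at the lower (left) and upper (right) edge of the segment, 1 point per peak, red on the side of the segment. Median widths within 500 kb of the splits are 1050 and 5025 bp at the lower edge and 3750 and 1425 bp at the upper edge.

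The lower edge ran through RORA, the gene of a nuclear receptor of the circadian clock and of lymphoid cells, at 60780483 to 61521518 on the minus strand. It had more peaks than any other symbol of the segment, 66. Below the split 29 peaks had a median of 1200 bp (300 to 7350), none reached 10 kb and they filled 15.8% of 322 kb. Above it 37 peaks had a median of 4950 bp (1200 to 17700), 4 reached 10 kb and they filled 48.4% of 419 kb. The part above the split is the 5′ part of the gene, since RORA is read toward lower coordinates. Within this 1 gene the number of peaks per kb was similar on both sides and the width was not.

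Reads over gene intervals were higher in the segment than on the rest of the chromosome, both where there was a peak and where there was none. Peaks were called from the same reads, so this split is not independent of the read level. The gene score is the number of reads per kb of a gene interval, and intervals of 1 kb or more were used. Intervals without a peak held 48.7 reads per kb in the segment (95% Poisson interval 48.5 to 48.9, 225 intervals). On the rest of chromosome 15 they held 24.2 (24.0 to 24.3, 324 intervals), a ratio of 2.02. Intervals with a peak held 105 reads per kb over 164 intervals in the segment and 54.2 over 272 outside, a ratio of 1.94. By the median interval the ratios were 1.87 and 1.91. Without a peak the range from the 25th to the 75th percentile was 31.4 to 65.5 in the segment and 15.7 to 41.8 outside, so single genes overlapped widely.

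The factor was not the same against every part of the genome. Against intervals without a peak up to 60 Mb the segment was higher by 2.11 times, and against those beyond 90 Mb by 1.55 times. With a peak these ratios were 1.97 and 1.82. Against autosomes other than 8 and 15 the ratio was 1.89 without a peak and 2.09 with one. Chromosome 8 had 59.9 reads per kb without a peak and 97.1 with one, on either side of the segment. Genomic copy number was not measured here, and its part in these ratios was not tested.

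**Figure D4:**
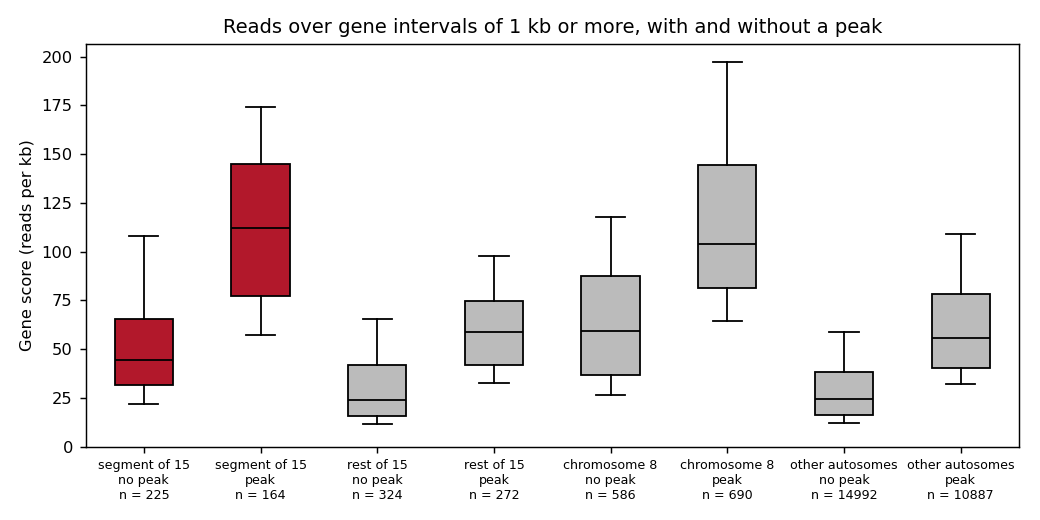
Gene score (reads per kb) of gene intervals of 1 kb or more with and without a peak in the segment, the rest of chromosome 15, chromosome 8 and the other autosomes; boxes span the 25th to 75th percentile with the median as a line, and whiskers the 10th to 90th percentile. Medians in the segment, 44.4 without and 112 with a peak, lie above those of the rest of the chromosome, 23.8 and 58.7.

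Across the 1 Mb steps of the segment the reads ran from 44.2 to 137 reads per kb, with a median of 91.3, and outside it from 18.7 to 71.1 with a median of 48.5. The 2 ranges overlapped. The values of the steps also differed where the widths changed. At the lower end they were 48.8 reads per kb from 60 to 61 Mb and 114 from 61 to 62 Mb. The value of 114 includes all 741 kb of RORA, counted by its midpoint, though RORA lies on both sides of 61 Mb and of the width split. It therefore cannot place the lower change of reads at that step. At the upper end the values were 80.2 from 89 to 90 Mb and 40.5 from 90 to 91 Mb. Low values inside the segment lay in the steps from 64 to 66 Mb, at 54.9 and 48.8, and from 75 to 76 Mb, at 44.2.

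Sequence in peaks was uneven within the segment, from 1.49% to 38.5% per step. The 5 steps with the highest share, at 61, 62, 69, 70 and 80 Mb, had from 30.7% to 38.5%, held 48 of the 139 wide peaks and 18 protein-coding symbols in all. The 5 with the lowest share, at 64, 65, 75, 85 and 87 Mb, had from 1.49% to 7.08%, with 1 wide peak and 64 protein-coding symbols. The counts of protein-coding symbols overlapped, from 1 to 7 in the first set and from 1 to 25 in the second, and the step at 87 Mb, with 0 wide peaks, held only 5 gene intervals of 1 kb or more. Peaks in 4 of these 5 steps had medians of 2850 to 4500 bp, and in the step at 87 Mb the median was 1650 bp. From 64 to 65 Mb only 3 peaks were called, with a median of 4500 bp, and from 65 to 66 Mb 3 with a median of 2850 bp.

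The densest step, from 70 to 71 Mb, had 41 peaks, 13 of them of 10 kb or more. They included peaks of 31050 bp at 70197751 to 70228800 and 30750 bp at 70022551 to 70053300. A peak of 42900 bp at 69970951 to 70013850 has its midpoint in the step before. TLE3, a Groucho family corepressor at 70340129 to 70390515, lies beside this stretch. It was looked up after its values were seen, and had 1 peak over 10.7% of its length and 76.0 reads per kb.

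Wide peaks came in groups. Neighbouring peaks of 10 kb or more in the segment lay a median of 47625 bp apart (25th to 75th percentile 12712 to 133537), and 51.4% of 138 such gaps were 50 kb or less. The largest was 2914200 bp. Stretches without any peak were also long. The longest gap, 1000650 bp at 64224301 to 65224950, held 25 symbols, 13 of them protein-coding, among them PPIB (a cyclophilin of the endoplasmic reticulum), SNX1 (a sorting nexin) and PIF1 (a DNA helicase). The next, 584850 bp at 82582351 to 83167200, was of another kind. It held the golgin family genes GOLGA6L9 and GOLGA6L10 and 3 further intervals, RP11-152F13.8, RP13-996F3.5 and RP13-608F4.8, which had 0 reads each and so the lowest scores of the segment. A count of 0 allows up to 3 reads, or 0.193 to 0.456 reads per kb for these intervals, and the exact Poisson interval used for the other scores reaches 0.237 to 0.561. Whether reads can be placed in these near-identical copies was not tested. Gaps of 543150, 410250 and 332250 bp followed, the second of them over SIN3A, CSPG4 and the ribosome assembly gene IMP3.

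Gene intervals took up 66.6% of the segment but 57.3% of its sequence in peaks and 49.7% of that in wide peaks. Outside the segment they took up 61.8% of the sequence, 67.3% of that in peaks and 76.3% of that in wide peaks. The 76.3% rests on only 8 wide peaks, several of them over the small nucleolar RNA arrays of the Prader-Willi locus. In the segment 15.5% of gene sequence and 23% of other sequence lay in peaks, and outside it 7.16% and 5.62%. The 623 peaks that overlapped a gene interval and the 377 that did not were of like width, with medians of 3600 and 3300 bp.

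Genes were reached by wide peaks more often in the segment than on the rest of the chromosome, though the share with any peak was not higher. The share of symbols under wide peaks is not given here for chromosome 8, where 9.88% of peaks reached 10 kb. Of 474 symbols in the segment 178 had a peak (37.6%), against 341 of 837 on the rest of the chromosome (40.7%) and 36.9% of all symbols. Peaks of 10 kb or more overlapped 64 symbols (13.5%), against 39 of 837 (4.66%) outside and 2.0% of all symbols. Most of those 39 were small nucleolar RNA copies under the wide peaks of the Prader-Willi locus named above. The number under peaks in the segment was 113 with 5 kb as the width and 26 with 20 kb. Among protein-coding symbols the counts were 31 of 233 (13.3%) and 1 of 303 (0.330%), beside 2.12% of all protein-coding symbols, and any peak was present in 94 (40.3%) and 157 (51.8%), beside 43.6%. A start lay in a peak for 62 symbols (13.1%), against 13.9% outside and 8.62% overall. For 29 it was a peak of 10 kb or more (6.12%), against 4.18% and 0.815%. The 4.18% also rests largely on the small nucleolar RNA copies. Of the 139 wide peaks 86 overlapped a gene interval, 59 a protein-coding one and 24 contained a start, and 53 (38.1%) overlapped none.

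The 10 widest peaks of the segment were 30750 to 54600 bp. The widest, 54600 bp at 89329501 to 89384100, began 17173 bp before the start of ACAN and also held the whole of RP11-343B18.2. A second wide peak of 14400 bp followed within ACAN, and together they covered 72.1% of its 71.9 kb. ACAN had 207 reads per kb (204 to 211). Its neighbours HAPLN3, a link protein that ties aggrecan to hyaluronan, and MFGE8, a secreted protein that marks dying cells for uptake, had no peak and 41.2 (38.3 to 44.3) and 42.1 (38.9 to 45.5) reads per kb. RP11-343B18.2, wholly inside the first peak, had 254 (228 to 283), so neighbours of ACAN lay both above and below it. HAPLN3 and MFGE8 were chosen for contrast after their values were seen.

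The second widest peak, 43350 bp at 79480501 to 79523850, contained MIR184, a microRNA of lens and cornea, and part of the longer interval RP11-17L5.4. The third, 42900 bp at 69970951 to 70013850, began within RP11-279F6.3 and ran past the end of that interval at 69988089. The fourth, 39600 bp at 63298201 to 63337800, lay mostly before TPM1 and reached 2969 bp past its start at 63334831. TPM1 had 101 reads per kb (97.3 to 105) and 29.3% of its length in 3 peaks, so most of the gene body was free of them. The fifth, 34050 bp at 80558401 to 80592450, lay in RP11-210M15.3.

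The sixth, 31950 bp at 62437351 to 62469300, contained all of C2CD4B, which had 263 reads per kb (239.5 to 288). The seventh, 31650 bp at 66387301 to 66418950, was 1 of 7 wide peaks inside MEGF11, a cell-surface protein that spaces neurons in the retina. These 7 peaks were the most for any symbol and held 36.0% of its 358 kb. Of the 2 peaks of 31050 bp, that at 70197751 to 70228800 overlapped no gene interval. The other, at 81193801 to 81224850, lay in KIAA1199, a hyaluronan-binding protein, and over RP11-351M8.1 and RP11-351M8.2. KIAA1199 had 3 wide peaks and 174 reads per kb. The tenth, 30750 bp at 70022551 to 70053300, contained the short AC009677.1.

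Among other genes with several wide peaks, THSD4, a matrix protein of microfibrils, had 6 and TLN2, the adhesion adaptor talin 2, had 5. CCDC33 also had 5, within 119 kb, and 42.0% of it lay in them. STRA6, the cell-surface receptor for retinol-binding protein, had 2 wide peaks over 86.5% of its 30.2 kb and 163 reads per kb (159 to 168). STRA6 and CCDC33 start within 1 peak of 20850 bp at 74492401 to 74513250, so their starts are not separate observations. CYP11A1 had 2 wide peaks over 73.0% of its 29.98 kb and 161 reads per kb (156 to 165). BNC1, a zinc finger protein of basal keratinocytes and germ cells, had its start 9184 bp from the nearest edge of a peak of 20550 bp.

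Among intervals of 1 kb or more, the highest gene score of the segment was that of NEIL1, a DNA glycosylase of base excision repair. It had 302 reads per kb (290.0 to 314) and 91.3% of its 8.26 kb in a peak of 9450 bp. SIN3A, the scaffold of a histone deacetylase complex in the peak-free gap next to it, had 26.4 (25.3 to 27.5). C2CD4B and ACAN were the other named protein-coding genes among the 10 highest. The rest were ST20, a long non-coding RNA in RefSeq, at 213 and intervals named only by clone, RP11-19J5.2 at 272, RP11-343B18.2 at 254, RP11-795G3.3 at 253, RP11-351M8.1 at 211, RP11-685G9.2 at 209 and RP11-272D12.1 at 205. RP11-685G9.2 was the only one of the 10 with no peak. After RORA the most peaks were in THSD4 with 31, AGBL1 with 30, CTD-2034I4.1 with 22 and TLN2 with 21. AGBL1 had only 7.28% of its 846 kb in peaks and none of 10 kb or more. The longest intervals wholly inside peaks were RP11-210M15.1, RP11-543G18.1, RP11-39M21.2, RP11-19J5.2 and RP11-795G3.3, from 2.10 to 11.4 kb.

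For each gene list the shares stand beside those of the 233 protein-coding symbols of the segment, of which 40.3% had a peak and 13.3% a wide one. An overlap of 1 bp counts, so longer genes can meet a peak more easily, and the shares were not adjusted for length. Neuronal genes ran from 5.26 kb (CPLX3) to 846 kb (AGBL1), those of basic cell functions only from 3.13 kb (RPLP1) to 96.1 kb (ETFA). Of 18 neuronal genes 13 had a peak (72.2%) and 7 a wide one (38.9%), with a median of 111 reads per kb, beside 56.0 for those 233 symbols and 34.2 for those of the rest of the chromosome. HCN4, the pacemaker channel of heart and neurons, was highest at 174 (170.1 to 177), followed by SKOR1, a corepressor of spinal neurons, at 165 (159 to 172). NTRK3, the receptor of neurotrophin-3, had 15 peaks, 1 of them wide, and 121 (119 to 122). The 3 genes of nicotinic receptor subunits lie side by side, with CHRNA3 and CHRNA5 overlapping at their ends: CHRNB4 had 126 (121 to 131) and no peak, CHRNA3 67.7 (64.7 to 70.8) and no peak, and CHRNA5 was lowest of the list at 49.7 (47.2 to 52.3) with 1 peak over 3.03% of its length.

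Of 11 genes of matrix and cartilage 5 had a peak (45.5%) and 2, ACAN and THSD4, a wide one (18.2%), near the shares of protein-coding symbols, with a median of 79.3 reads per kb. The list split: ACAN, THSD4, CILP (a cartilage matrix protein), ADAMTSL3 and ITGA11 (a collagen-binding integrin) had peaks and 85.7 reads per kb or more. The other 6 had none, down to 29.8 (28.1 to 31.6) for CSPG4, a proteoglycan of pericytes and glial precursors. All 5 genes of muscle and heart had a peak and 3 a wide one, from HCN4 at 174 to AKAP13, an anchoring protein for protein kinase A, at 62.9 (62.2 to 63.6). HCN4 is on both lists.

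Of 10 genes of signalling, nuclear receptors and retinoid handling 9 had a peak and 4 a wide one, with a median of 84.4. STRA6 at 163 and ARNT2, a bHLH-PAS factor of neurons, at 162 (160.4 to 164) were highest. SMAD3 and SMAD6, the signal carrier and an inhibitor of the TGF-beta and BMP pathways, had 85.8 (84.2 to 87.4) and 71.9 (70.0 to 73.8) and 1 peak each. PIAS1, a SUMO ligase, was lowest at 50.2 (49.0 to 51.4). The 6 genes of liver and steroid metabolism had a median of 88.9, from CYP11A1 at 161 to FAH, the last enzyme of tyrosine breakdown, at 47.0 (44.8 to 49.4), and 2 of them had a peak. CYP1A1 and CYP1A2, drug-metabolising cytochromes, had 93.6 and 84.3 and no peak.

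Genes of basic cell functions had low scores and no wide peak. Of 20 such genes 3 had a peak (15%) and 0 a wide one, and their median of 33.9 reads per kb lay below that of the protein-coding symbols of the segment. RPL4 and COX5A, parts of the ribosome and of cytochrome c oxidase, were lowest at 21.8 (18.3 to 25.7) and 21.9 (19.8 to 24.2), and RPS27L was highest at 63.0 (60.2 to 65.8). Of 10 genes of blood and immune cells 3 had a peak (30%) and 0 a wide one, beside 40.3% and 13.3%, with a median of 52.6. IL16, a cytokine of T cells, had 114 (112 to 116) and 6 peaks, and CSK, the kinase that restrains SRC family kinases, was lowest at 26.8 (24.6 to 29.1). Of the 5 zinc finger genes BNC1 at 183 (178 to 188) and ZSCAN2 at 138 (133 to 142) had a peak. ZFAND6, ZNF609 and ZNF592 had none, with 44.6, 42.0 and 36.5. The lists are small and were chosen with earlier results of this library known, so their counts describe these genes only.

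**Figure D5:**
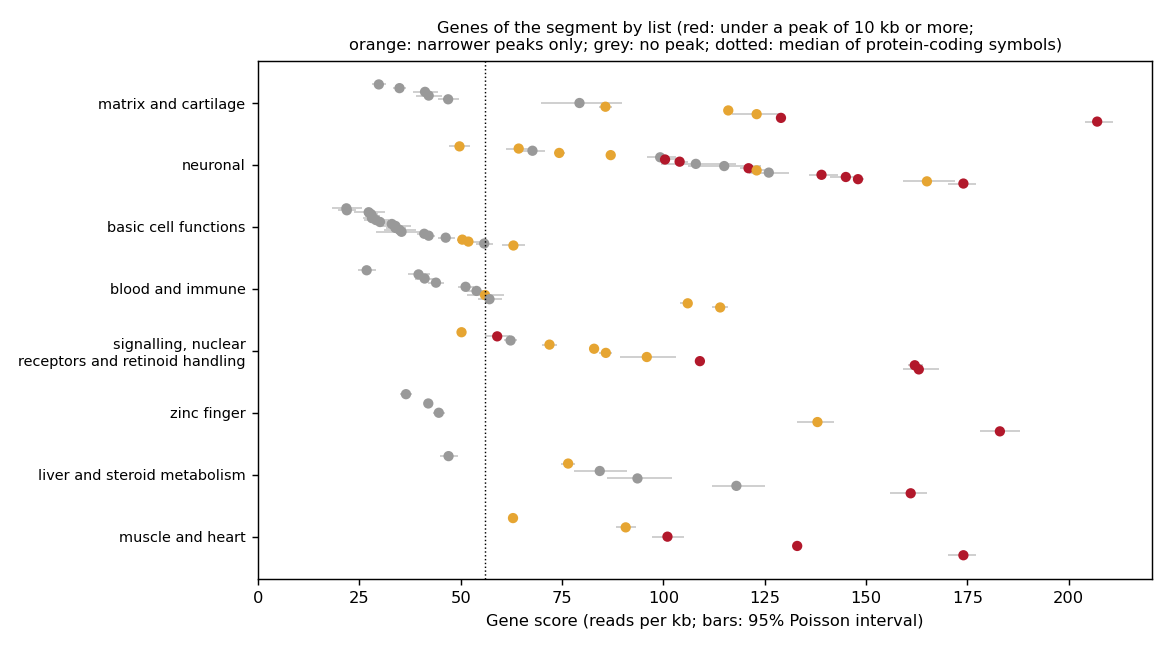
Gene score (reads per kb, with 95% Poisson intervals) of the members of 8 gene lists in the segment, 1 point per gene, red under a peak of 10 kb or more, orange with narrower peaks only and grey with no peak; the dotted line is the median of the 233 protein-coding symbols, 56.0. Most basic cell function genes lie to its left and most neuronal genes to its right, led by ACAN at 207 in the matrix list.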

How the data were processed

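Per the submitters' processing notes, the tools were Bowtie2 and MACS and the genome hg19. Their versions and settings, and whether IgG served as control, were not stated in any source at hand. The authors deposited raw read counts per gene interval, and a score, a signal that equals reads divided by interval length in kb (largest difference 3.03e-06) and is not scaled for depth, control or copy number. The deposited peak list gives only positions, on a grid of 150 bp.

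Peaks were assigned by midpoint, and lengths ran from 20.0 Mb, the first coordinate of chromosome 15 in the files, to the last, at 102520950. Genes and peaks overlapped by 1 bp or more. Symbols with several intervals were counted once, with score, position and cover from the interval with the highest score. Peaks and starts in peaks were taken from whichever interval of the symbol had most. Intervals are exact binomial (shares, medians) or exact Poisson (scores) at 95%. Those of ratios divide opposite ends of the intervals of both parts and are wider than 95% intervals. Types of 279 of 474 symbols came from RefSeq. PKM was matched through its older symbol PKM2, OAZ2 was not analysed here, and RHCG and PLIN1 have their midpoint beyond 90 Mb. Other bounds, widths, bins, joined gaps and comparison regions were tried as alternatives. Overlap, joining and median intervals were tested on simulated data. Named peaks were the 10 widest and those at the edges; named genes were those under the widest peaks, the 10 highest and 5 lowest scores, the 5 with most peaks and with most cover, and list extremes, with neighbours added for contrast after their values were seen. Members and lists were chosen with earlier results of these data known. The tools were pandas 2.3.3 and numpy 2.4.6 for tables, scipy 1.17.1 for intervals and matplotlib 3.10.9 for plots, under Python 3.11.15.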

Additional observations from a re-analysis of the deposited data

How the results depend on the processing

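Of 59 alternative values 38 stayed close to the reported one (within its interval, within 1.5 times for counts and covered sequence, or by less than 1 Mb for edges), 21 moved and 0 changed direction. Touching peaks joined and intervals without a peak were chosen after seeing the data. The ratio of median widths, 4.0, was 4.67 for the inner part from 65 to 85 Mb and 3.43 without peaks under 600 bp. The ratio of peaks per Mb, 0.655, was 0.761 against the other autosomes and 0.817 without peaks under 600 bp. The ratio of shares of wide peaks, 46.4, was 15.6 at 5 kb as the width and 13.0 with gaps of 1500 bp or less joined; outside the segment it rests on 8 peaks. The ratio of reads per kb, 1.85, was 1.87 with bounds of 61 to 90 Mb, 1.93 for the inner part, 1.67 by the median score, 2.02 against the other autosomes, 2.02 in intervals without a peak and 1.92 without the first 35 Mb. The longest run of steps, from 61 to 87 Mb, began at 62 and ended at 90 Mb in steps of 2 Mb. It ended at 78.5 Mb in steps of 0.5 Mb, and by the share of sequence in peaks it ran from 68 to 72 Mb. Of the 64 symbols under wide peaks 31 were protein-coding; there were 113 at 5 kb, 26 at 20 kb and 22 with 50 percent or more of the interval in such peaks. The cause of these shifts was not tested. With 1 library no value could be checked in a replicate, and no peak heights or total depth were at hand.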
